A study of Fundulus heteroclitus with 6 samples.

Results

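The response of Scorton Creek (SC) killifish embryos to PCB-126 was examined in the reads of 1 pair of libraries, SC embryos with PCB-126 against SC embryos with the solvent DMSO, both at 10 days post-fertilization (dpf). An isogroup is a set of assembled contigs taken to come from a single gene. Isogroups were included when they had at least 10 reads in the pair together. This gave 4135 of the 22732 isogroups of the series (18.2%). Another 14205 isogroups had 1 to 9 reads in the pair and 4392 had none.

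Atlantic killifish (Fundulus heteroclitus) from SC, the reference site, are sensitive to dioxin-like PCBs, whereas fish from the PCB-contaminated New Bedford Harbor (NBH) are resistant. PCB-126 is a planar PCB that activates the AHR (aryl hydrocarbon receptor), a transcription factor switched on by its ligands. The activated receptor pairs with its partner ARNT and raises transcription of target genes, best known among them the cytochrome P450 enzyme CYP1A, and sustained activation in fish embryos disturbs the heart and the vessels. The question behind the pair is which transcripts are altered by PCB-126 in embryos that can respond to it. By 10 dpf the study saw first signs of developmental delay and edema around the heart in SC embryos with PCB-126. SC embryos with DMSO and both NBH groups were reported to develop normally. A difference of stage or health therefore cannot be told apart here from a direct response.

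Both groups were embryos of 1 population with no genetic alteration named, spawned from 8 females and 5 males collected at SC. By the study's methods, embryos were exposed from 4 h post-fertilization for 1 h to 50 nM PCB-126 or to 0.1% DMSO, whereas the sample labels state a treatment of 6 h before sampling. The same design was used for NBH, and the NBH libraries with DMSO and with PCB-126 serve here for comparison. The RNA of 3 pools, each of 20 whole embryos, was combined in a library, so that a value is a mean over embryos and tissues, and fewer cells of a type cannot be told apart from less RNA per cell. Libraries were anchored at the 3' end of transcripts, described in the labels as giving 1 read per transcript, and the values are whole-number counts of uniquely matching reads, not normalised.

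In SC the library totals were 124000 counts for DMSO and 132893 for PCB-126, within the 95410 to 132893 reads of the 4 libraries. The included isogroups held 80.9% of the reads of each SC library. No isogroup number could be matched to a gene, so neither CYP1A nor any marker of a tissue could be looked up. The labelled treatment was therefore not checked by its target genes in these counts. By real-time RT-PCR, a separate measure of RNA, the study itself reported strong CYP1A induction by PCB-126 in SC, whereas NBH fish hardly responded. The highest count of an isogroup in the SC library with PCB-126 was 1476 reads. The study's own matching of reads to array probes gave CYP1A more reads than this in that library. No single isogroup therefore holds all those CYP1A reads. The study found no CYP1A read in the SC library with DMSO. Among the included isogroups without DMSO reads, the highest counts with PCB-126 were 210, 150 and 37. Whether the CYP1A reads are spread over many isogroups or missing from the counts was not tested, so most of this response may not be seen here. There was 1 library per condition and no replicate. The tests therefore compare the reads of these libraries and not the conditions. The intervals of ratios and levels and the floors cover counting error only. No molecular identifiers are named in the protocols, so that reads may not be independent molecules. Levels are compared between libraries within an isogroup, never between isogroups.

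Isogroups higher and lower with PCB-126 were nearly equal in number when libraries were scaled by their totals. Fisher's two-sided exact test set the count of an isogroup and the remaining reads of its library against those of the other library, and a call required a Benjamini-Hochberg adjusted p under 0.05 over all 4135 isogroups and a ratio of reads per library total of at least 2. By this rule 495 isogroups were higher with PCB-126 (12.0%) and 450 were lower (10.9%). With DESeq2 size factors the split was less even, at 486 higher and 310 lower. The ratio of 2 alone was reached by 1063 isogroups upwards (25.7%) and by 927 downwards (22.4%). The median log2 ratio over all included isogroups, with 0.5 reads added to each count, was 0.03, and the middle 80% of isogroups lay between -1.87 and 2.10. The same rule in the NBH pair gave 11.8% higher and 11.2% lower of 3691 isogroups. With scatter between libraries added, the exact test of edgeR with an estimated coefficient of variation of 56.7% called 1 isogroup higher and 0 lower. Unadjusted p-values under 0.05 in that exact test, with a ratio of at least 2, were found for 205 of the 4135 isogroups upwards and 139 downwards. Such a limit also passes isogroups by chance, so these are not calls.

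**Figure D1:**
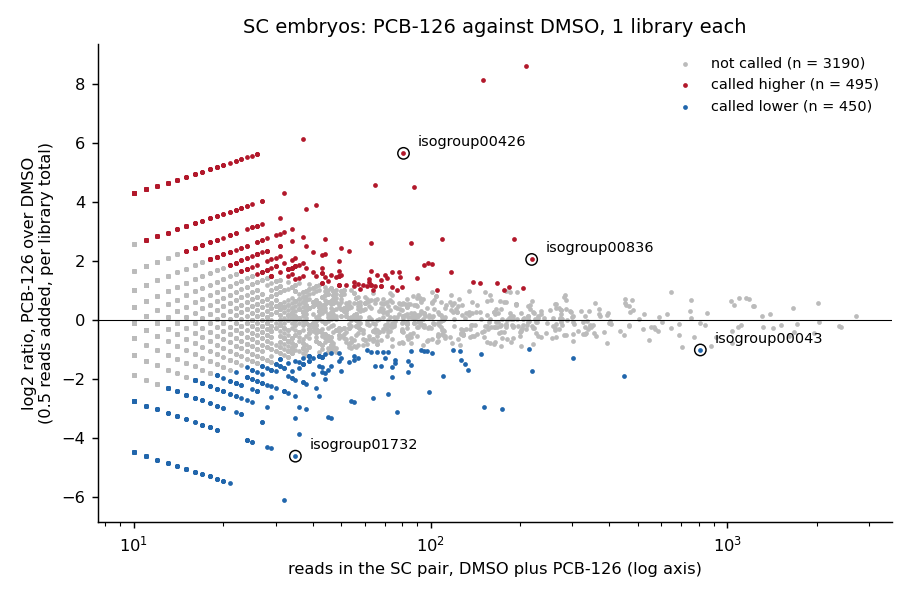
Each point is 1 of 4135 isogroups, with its reads in the SC pair on a log axis and the log2 ratio of PCB-126 over DMSO on the other. The 495 isogroups called higher and the 450 called lower fan out at few reads, and the 4 named isogroups are circled.

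Of the isogroups called higher, 330 had reads in both libraries, with a median ratio of 6.19, and 165 had no read with DMSO. Among the former, 52 lay between 2-fold and 3-fold, 85 between 3-fold and 5-fold, 98 between 5-fold and 10-fold, and 95 at 10-fold or more. Of the isogroups called lower, 347 had reads in both libraries, with a median of 5.89-fold, and 103 had no read with PCB-126. Among called isogroups with reads in both libraries, the median sizes of change were thus similar. The whole lists had a median of 18 reads in the pair for those higher and 17 for those lower. With so few reads only large ratios are called, so the call rule largely sets these medians. All included isogroups without reads in 1 of the libraries were called, because with 0 reads in 1 library the minimum of 10 reads was itself enough. Across all 22732 isogroups, 4920 had reads with PCB-126 only and 4426 with DMSO only. At an equal depth of 124000 reads, 13677 isogroups would be expected with reads in the PCB-126 library, against 13420 observed with DMSO.

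At the edge of the minimum, the 416 isogroups with exactly 10 reads in the pair included 40 called higher and 64 called lower, and the 523 isogroups with 9 reads were not tested. Of the isogroups with 10 reads, 40 had no DMSO read and 26 had no PCB-126 read. Those called higher were thus only isogroups without a DMSO read, whereas 9 DMSO reads and 1 PCB-126 read sufficed for a call lower. At this edge the rule therefore reached further for lower calls than for higher.

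The share of isogroups called was lower in classes of more reads. It was 25.1% of 2190 isogroups with 10 to 19 reads in the pair and 23.8% of 1255 with 20 to 49 reads. It was 19.9% of 341 with 50 to 99 reads and 12.1% of 174 with 100 reads or more but under 200. Of 175 isogroups with 200 reads or more, 8 were called, 3 higher and 5 lower (4.57%). In these best-measured isogroups changes were small, with a median of 1.24-fold either way, and for 156 of them (89.1%) the exact 95% interval of the ratio lay wholly between 0.5 and 2. An interval within these limits was not attainable with few reads, and none of the isogroups with 10 to 19 reads had one. Intervals excluded 1 more frequently than counting error alone gives. At 200 reads or more the interval excluded 1 for 90 isogroups (51.4%), against 5% by counting error alone, and at 10 to 19 reads for 716 (32.7%).

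**Figure D2:**
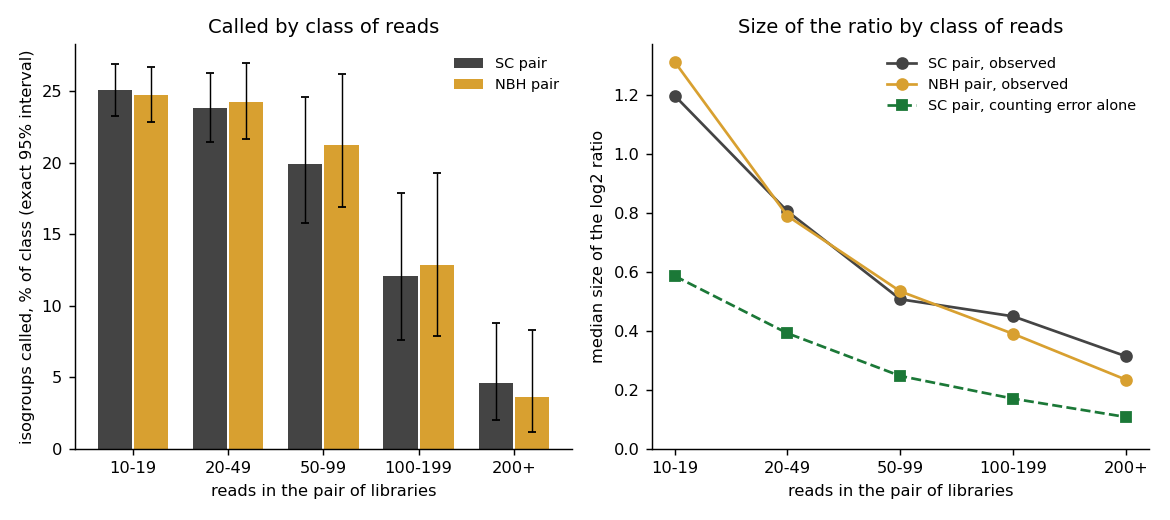
The left panel gives the percentage of isogroups called in 5 classes of reads for the SC and NBH pairs, with exact 95% intervals. These intervals take isogroups as independent draws and cover neither counting error of reads nor scatter between libraries. The right panel gives the median size of the log2 ratio, which in SC fell from 1.20 at 10 to 19 reads to 0.31 at 200 or more and lay above the value from counting error alone in every class (0.59 and 0.11 in those classes).

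The NBH pair had a like course, from 24.8% called at 10 to 19 reads to 3.65% at 200 or more. In the class of most reads the median size of the log2 ratio was 0.31 in SC and 0.23 in NBH. The difference between the pairs was not tested.

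The 10 isogroups of most reads in the pair, from 1619 to 2722 reads each, included no call. They held 8.11% of the DMSO reads and 7.64% of the PCB-126 reads, and their ratios ran from 0.690 to 1.47. The largest of these ratios belonged to an isogroup with 781 DMSO reads and 1233 PCB-126 reads for SC, against 55 and 37 for NBH. Its 1.47-fold difference (95% limits 1.35 and 1.61, Fisher's exact test, adjusted p = 2.60e-15) was under the minimum of 2 although well above counting error. The smallest belonged to an isogroup read 931 and 688 times in SC and 537 and 672 times in NBH, 0.690 with 95% limits of 0.624 and 0.762 (Fisher's exact test, adjusted p = 1.63e-11). Over the 100 isogroups of most reads, 0 were called higher and 3 lower. Without the minimum ratio, 20 of the 100 were higher and 33 lower at an adjusted p under 0.05 (Fisher's exact test). By the same rule 544 were higher and 504 lower among all 4135 included isogroups. Smaller ratios pass with more reads, so these shares cannot be compared as shares of responding isogroups.

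By a rule given under the processing, 2 isogroups of each direction are named. Isogroup00836 had the most reads among those called higher. In SC it had 40 DMSO and 179 PCB-126 reads, and in NBH 49 and 36. The SC library with PCB-126 stood above the other 3 libraries, whose levels ran from 291 to 514 RPM (reads per 1000000 reads of the library) against 1347 RPM. It was 4.18-fold higher with PCB-126 in SC (95% limits 2.95 and 6.04, Fisher's exact test, adjusted p = 1.11e-17) with a ratio of 0.567 in NBH (95% limits 0.358 and 0.890). Whether the ratio was equal in both populations was assessed from the 4 counts by an exact conditional test (Fisher's noncentral hypergeometric distribution), in which isogroup00836 differed between SC and NBH (adjusted p = 2.76e-10).

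For isogroup00426, SC had 1 DMSO read and 80 PCB-126 reads, and NBH had 0 and 1. Its reads were thus found almost wholly in the SC library with PCB-126. With 1 read in the denominator the ratio of 74.7 is poorly bounded above, with 95% limits of 13.0 and 2985 (Fisher's exact test, adjusted p = 3.01e-19). With so few NBH reads the conditional test could not call a difference of response (adjusted p = 1, exact conditional test).

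Among the isogroups called lower, isogroup00043 had the most reads. Counts were 531 (DMSO) and 280 (PCB-126) for SC, against 447 and 534 for NBH. Here 3 libraries lay at 4282 to 4685 RPM and the SC library with PCB-126 stood below them at 2107. The level was 2.03-fold lower with PCB-126 in SC (95% limits 1.76 and 2.36, Fisher's exact test, adjusted p = 4.22e-20), with a ratio of 0.922 in NBH (95% limits 0.812 and 1.05). The ratio differed between SC and NBH (adjusted p = 5.83e-08, exact conditional test). With DESeq2 size factors the SC ratio was 0.527 and no longer met the minimum of 2.

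Isogroup01732 was read 34 times in SC embryos with DMSO and once with PCB-126, and 4 and 6 times in NBH. In this case the SC library with DMSO was the one that stood apart, at 274 RPM against 7.53 to 48.5 in the other 3. The level was 36.4-fold lower with PCB-126 (95% limits 6.11 and 1481, Fisher's exact test, adjusted p = 4.98e-08), and the ratio differed from that in NBH (adjusted p = 0.0123, exact conditional test). In the exact test of edgeR with the estimated coefficient of variation, none of the 4 named isogroups was called, with adjusted p-values from 0.523 to 1.

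**Figure D3:**
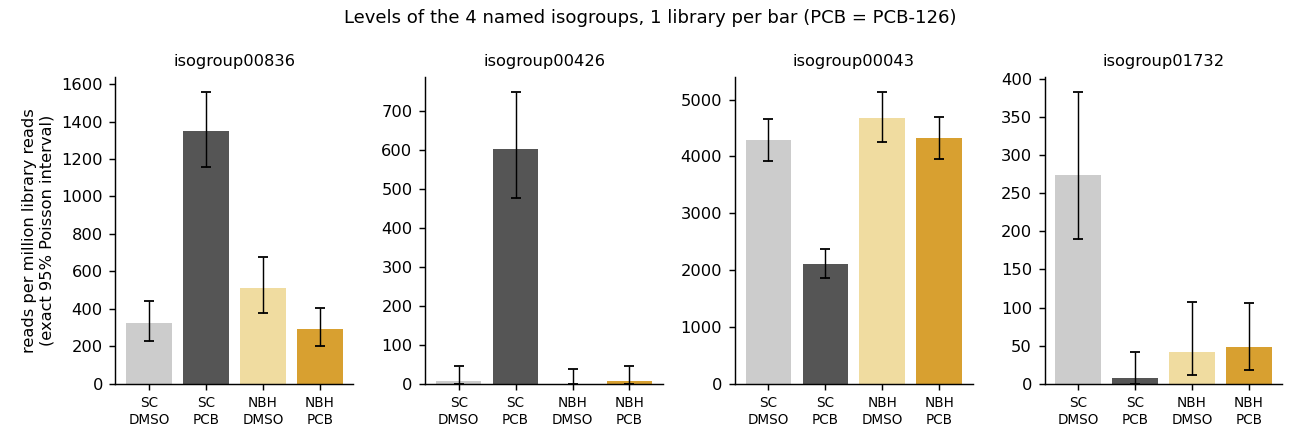
Bars give the level of the 4 named isogroups in RPM in the 4 libraries, 1 library per bar, with exact 95% Poisson intervals. The SC library with PCB-126 stands above the others for isogroup00836 and isogroup00426 and below them for isogroup00043, while for isogroup01732 the SC library with DMSO stands above.

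Changes whose interval lay wholly beyond 4-fold were about as many in both directions in SC, with 34 isogroups higher (0.82%) and 37 lower (0.89%). In the NBH pair this bound was passed by 17 isogroups higher (0.46%) and 41 lower (1.11%). Beyond 8-fold there were 5 higher (0.12%) and 1 lower (0.02%) in SC, a group defined after the values had been seen. The SC counts of the 5 higher, DMSO first, were 0 and 210, 0 and 150, 3 and 85, 1 and 80, and 0 and 37. The fourth of these is isogroup00426. Together the SC counts came to 4 for DMSO and 562 for PCB-126, which is 0.423% of the latter library. In the NBH libraries they had no read with DMSO and 7 with PCB-126, and none of them had more than 3. All 5 had 3 reads or fewer in each of 3 libraries and at least 37 in the SC library with PCB-126. The first had at least a 65.3-fold higher level with PCB-126 than a floor of 3 counts in the SC library with DMSO, the second at least 46.7-fold, and the fifth at least 11.5-fold. These folds take the PCB-126 count as exact. With its counting error included, the lower limits of the exact 95% intervals were 52.7, 37.5 and 8.90. The 1 isogroup lower beyond 8-fold dropped from 32 reads to 0 in SC and was read 1 and 4 times in NBH, at least 11.4-fold lower against the same floor, with an upper 95% limit of the ratio of 0.114. In the NBH pair the 8-fold bound was passed by 3 isogroups higher (0.08%) and 3 lower (0.08%).

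Of the 165 included isogroups without DMSO reads in SC, 15 reached 10 reads in the NBH pair, against 2471 of all 4135 included isogroups. The 165 had a median of 12 reads with PCB-126 in SC, and 2 of them had 50 reads or more. All included isogroups had a median of 19 reads in the SC pair, so these groups are not matched for reads. Of the 103 isogroups without PCB-126 reads in SC, 9 reached 10 reads in the NBH pair. The highest DMSO count among the 103 was 32. The floor of 3 counts, a one-sided 95% limit for a library without reads, is 0.00242% of the DMSO library and 0.00226% of the PCB-126 library.

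The isogroups called higher in SC held 1.60% of the reads with DMSO and 8.54% with PCB-126, and those called lower held 8.60% and 1.97%. These shares follow from the calls. The NBH libraries took no part in the calls, and there the isogroups called higher in SC held 3.08% of the reads with DMSO and 3.20% with PCB-126. Those called lower in SC held 3.81% and 3.83% in NBH. In both lists the NBH share lay between the SC shares and differed little between the NBH treatments. The lists were chosen for unlike counts in the SC libraries, so that a position between the SC shares was favoured by that choice.

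**Figure D4:**
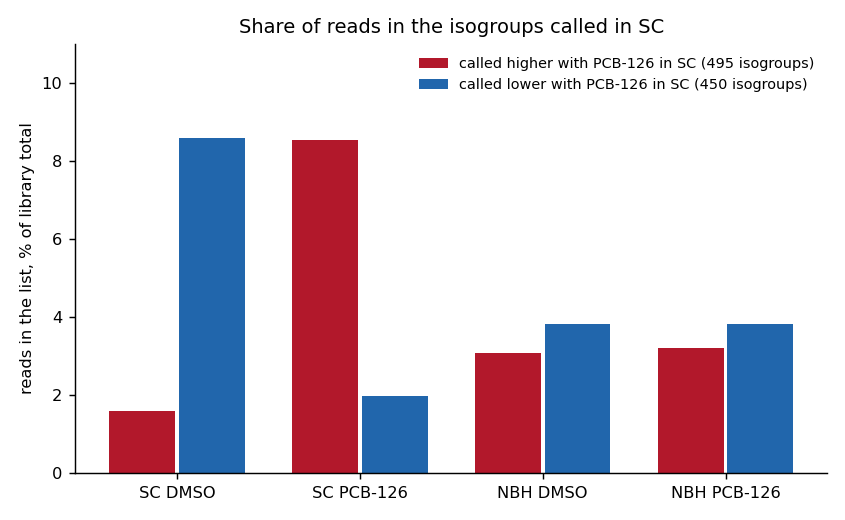
Bars give the reads held by the isogroups called higher and lower with PCB-126 in SC, as a percentage of each library. The lists exchange shares between the SC libraries, from 1.60% to 8.54% and from 8.60% to 1.97%, and hold 3.08% to 3.83% of each NBH library.

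In both lists the SC library with the higher level lay above both NBH libraries for most isogroups. With PCB-126, 440 of the 495 isogroups called higher (88.9%) had a level above both NBH libraries, and with DMSO 236 of them (47.7%) had a level below both. The isogroups called lower mirrored this, since with DMSO 397 of the 450 (88.2%) were above both NBH libraries and with PCB-126 219 (48.7%) were below both. Over all included isogroups, 47.2% were above both NBH libraries with PCB-126 and 44.6% with DMSO. Below both NBH libraries were 23.8% of them with DMSO and 22.3% with PCB-126. Isogroups were included on SC reads alone, and a call requires a high count in 1 of the SC libraries. The NBH level with DMSO was nearer to the SC level with DMSO than to that with PCB-126 for 67.3% of the isogroups called higher, and for 31.8% of those called lower. For the NBH level with PCB-126 these shares were alike, at 66.7% and 31.8%. With at least 50 reads in the SC pair, they were 76.5% of 51 and 43.5% of 46 for NBH with DMSO. Isogroups that were not called showed the same for NBH with DMSO in weaker form. The share was 61.6% where the SC level was higher with PCB-126 and 37.9% where it was lower.

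The isogroups called in SC had NBH ratios centred near 1. Of the 495 called higher, 205 had at least 10 reads in the NBH pair, and their median log2 ratio there was -0.06 (quartiles -0.99 and 0.78), while it was 2.05 in SC. Of the 450 called lower, 251 had fewer NBH reads than that, and the others had a median of 0.06 in NBH (quartiles -0.62 and 0.95) and of -2.05 in SC. Over the 2471 isogroups included in both pairs, the NBH median was 0.04. With at least 50 reads in the SC pair, the NBH medians were 0.05 for 42 isogroups called higher and 0.13 for 45 called lower.

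**Figure D5:**
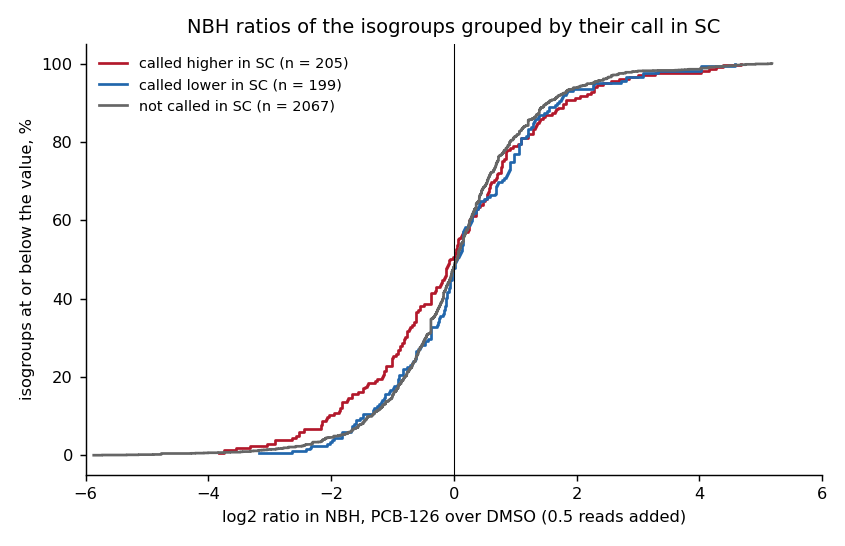
Curves give the percentage of isogroups at or below each NBH log2 ratio, for isogroups called higher, called lower and not called in SC that had at least 10 NBH reads. The 3 curves cross 0 close to each other, with medians of -0.06, 0.06 and 0.05.

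In a direct test, SC exceeded NBH in its response ratio (PCB-126 over DMSO) for 194 of the 4135 isogroups (4.69%) and fell below it for 161 (3.89%), together 8.59%, by the exact conditional test with Benjamini-Hochberg adjustment over every isogroup that reached 10 reads in the sum of the 4 libraries. Of the 495 isogroups called higher in SC, 97 were among the former (19.6%), and of the 450 called lower, 83 were among the latter (18.4%). The others did not pass, which does not show that their ratios were alike, and 290 of the 495 and 251 of the 450 had under 10 reads in the NBH pair. The SC calls enter this test, so that these shares are not independent of them. With an assumed coefficient of variation of 0.4 between libraries, the likelihood ratio test of edgeR passed 26 and 15 isogroups.

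In the NBH pair the interval excluded 1 for 43.2% of all isogroups with 100 reads or more but under 200. The share was 39.4% at 200 reads or more and 35.6% at 50 to 99 reads. An NBH interval without 1 is therefore common and no trait of the SC lists in itself. The 10 isogroups of most reads in each SC list varied in their NBH ratios. Among those called higher, which had 139 to 219 reads in the pair, the NBH interval lay above 1 for 3, below 1 for 3 and held 1 or had no bound for 4. As an example of a like change, an isogroup read 47 and 121 times in SC, 2.40-fold higher (95% interval 1.70 to 3.44), was read 53 and 143 times in NBH, 2.08-fold higher (95% interval 1.51 to 2.91). Another was read 23 and 168 times in SC, 6.82-fold higher (95% interval 4.39 to 11.1), whereas its NBH counts were 33 and 23, with a ratio of 0.538 (95% interval 0.302 to 0.944). The conditional test passed for 5 of these 10. Among the 10 called lower, which had 131 to 811 reads, the NBH interval lay below 1 for 1, above 1 for 4 and held 1 for 5, and the conditional test passed for all 10. Both lists of 10 were chosen by SC calls and reads, which enter that test and favour a difference, and over all included isogroups 8.59% passed. One of them was read 133 and 18 times in SC, 7.92-fold lower (95% interval 4.82 to 13.8), and 16 and 45 times in NBH, a ratio of 2.17 (95% interval 1.20 to 4.11).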

How the data were processed

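RNA of 10-dpf embryos was sequenced by pyrosequencing as 4 barcoded 3'-anchored libraries. The table deposited by the authors holds raw counts of uniquely matching reads per isogroup. The programs that made its isogroups and counts are not given in the sources used here. Methods of the study name BlastStation-Local and CAP3 for matching reads of these libraries to array probes, and Newbler for the shotgun libraries, which were not analysed here. Of the cells of the deposited table, 7 were blank, all in the last 4 rows, and were read as 0. The blanks numbered 2 for SC with DMSO, 4 for SC with PCB-126, 0 for NBH with DMSO and 1 for NBH with PCB-126. Same rows correlated better between columns (Pearson r = 0.501) than rows shifted by 1 to 4 (at most 0.340). This does not exclude a shift over part of a column.

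Library size was the column sum. Ratios have exact Clopper-Pearson intervals, and log2 ratios used 0.5 added reads. The common dispersion came from an additive edgeR model of population and treatment over the 4 libraries, so it also holds any difference of response. Tests were tested on simulated data, where the edgeR exact test missed most of the largest changes put in. Members and lists were chosen with earlier results of these data known. Named isogroups were, per direction, the called isogroup of most reads and the one whose interval lay farthest from 1 among those with reads in both libraries. Gene names were looked for in the RefSeq gene table, with 0 matches. Alternatives were TMM and DESeq2 library sizes, the 10 best-covered isogroups left out, at least 1 or 30 reads in place of 10, a ratio of 4 or none, thinning of the larger library, leaving out rows with blanks, and edgeR tests. The software was edgeR 4.0.16 and DESeq2 1.42.0 (R 4.3.3) and numpy 2.4.6 and scipy 1.17.1 (Python 3.11.15).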

Additional observations from a re-analysis of the deposited data

Results flagged for a closer look

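The PCB-126 to DMSO ratio differed between SC and NBH for 3 of the 4 named isogroups (exact conditional test, counting error only), and for 8.59% of all included isogroups. The named isogroups were chosen by their SC counts, which enter this test, so that a difference was favoured by the choice. The adjusted p was 2.76e-10 for isogroup00836, whose ratio was 4.18 in SC and 0.567 in NBH, and 5.83e-08 for isogroup00043, at 0.492 and 0.922. It was 0.0123 for isogroup01732, at 0.0274 and 1.16, where 4 and 6 NBH reads leave the latter ratio a 95% interval of 0.275 to 5.58. Over the included isogroups the same test found the ratio higher in SC for 194 and lower in SC for 161.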

How the results depend on the processing

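Of 11 alternatives to the SC calls, scaling and ratio changed the counts by less than 1.5 times. With TMM there were 496 isogroups higher and 449 lower, and with DESeq2 size factors 486 and 310, of which 471 and 310 had been called before. The share of higher calls was then 61.1%, against 52.4%. A minimum of 1 read gave 298 higher, because 18340 isogroups were then adjusted over, and 310 lower, and a minimum of 30 reads gave 113 and 112 among 1213 isogroups. Tests with an estimated or assumed scatter ended nearly all calls, though no replicate was there to measure it. In simulated data the exact test of edgeR missed most of the largest changes put in. The exact test of edgeR called 1 higher and 0 lower with the estimated dispersion, and 3 and 0 with an assumed coefficient of variation of 0.4 (324 and 216 at an unadjusted p under 0.05, exact test). The differences from NBH numbered 113 higher and 100 lower in SC with a minimum of 1 read, and 26 and 15 in the edgeR interaction test. At an unadjusted p under 0.05, which again passes some by chance, the interaction test gave 259 and 248 of 4135 isogroups. The differences from NBH stayed within 1.5 times in 3 other alternatives. With the assumed coefficient of variation of 0.4, isogroup00426 was still called (adjusted p = 0.0107, edgeR exact test), and isogroup00836 (0.227), isogroup00043 (0.715) and isogroup01732 (0.145) were not. Single isogroups were run with TMM, DESeq2 size factors, the totals without the 10 isogroups of most reads and both edgeR exact tests. None of these 5 turned the direction of a named isogroup. They changed the library sizes little or not at all, and a call needed a ratio of at least 2, so no turn could come of them. No paired analysis was possible because each condition has 1 library. Depth limits the small classes most, since with 10 to 19 reads no interval could lie within 2-fold of 1.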
